A study of Mus musculus with 6 samples.

Results

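The insulin-like growth factor (IGF) genes examined here were the ligands Igf1 and Igf2, the receptors Igf1r and Igf2r, and the binding proteins Igfbp2 to Igfbp7, 10 genes of the 33276 in the count table. They were taken by name. Expression was measured by RNA-seq in 3 libraries of circulating fibroadipogenic progenitors (FAPs) from peripheral blood and 3 libraries of FAPs from muscle. All 6 libraries came from mice with middle cerebral artery occlusion (MCAO), which models stroke by blocking blood flow to the brain, and no library from mice without the occlusion was analysed here. FAPs are stromal cells of skeletal muscle, able to become fibroblasts or fat cells. The labels name MCAO under strain and give no mouse strain, age, sex, time after occlusion or sorting scheme.

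IGF-1 is a secreted growth factor that acts through the receptor tyrosine kinase encoded by Igf1r, and in muscle it promotes fibre growth and repair. IGF-2 binds the same receptor, while the receptor encoded by Igf2r takes up IGF-2 for degradation and also sorts lysosomal enzymes. The binding proteins hold most secreted IGF, prolong its life and regulate its access to the receptor. FAPs and other fibroblasts are known sources of both IGF-1 and binding proteins in muscle.

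Library totals ran from 5522193 to 13813329 counts in circulating and from 17532558 to 23424039 in muscle libraries. 18S ribosomal RNA stands under a pair of symbols, which together held 42.9% to 60.1% of circulating and 27.8% to 32.3% of muscle counts. With only 1 of the symbols kept in the table, its share was 27.3% to 43.0% in circulating and 16.1% to 19.3% in muscle libraries. Among 10 FAP markers, the summed level was 25299 to 27919 counts per 1000000 (CPM) in circulating and 56898 to 67365 CPM in muscle libraries. Gsn alone averaged 14537 CPM in circulating and 33197 CPM in muscle libraries. All 10 had a negative log2 fold change, against 78.3% of genes of at least 20 CPM. Gsn passed the edgeR test over all genes, as 0.109% of tested genes did. The groups did not overlap for 7 of the 10, all lower, against 28.8% lower without overlap among genes of at least 20 CPM. They overlapped for Cd34, Ly6a and Cd55. Pdgfra, the receptor that defines FAPs, averaged 201.2 ± 16.5 CPM in circulating libraries, against 608.2 ± 208.9 CPM in muscle (SD, n = 3 each; edgeR adjusted p = 0.114). The part of these markers in the IGF gene differences was not tested. Leukocyte markers were higher in circulating libraries as a sum, with 134.5 to 168.9 CPM against 21.5 to 39.1 CPM. Of the 12 tested, 0 passed in edgeR, 7 were higher at an unadjusted p under 0.05 and 4 were higher with DESeq2. Over all tested genes 19.3% had an unadjusted p under 0.05 in either direction and 9.64% were lower, and DESeq2 called 1.16% of its genes higher. In bulk RNA, fewer cells of a type and less RNA per cell cannot be told apart.

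The IGF genes apart from Igfbp3 fell into 3 kinds by their levels. Igf1, Igf1r, Igf2r and Igfbp7 were lower in every circulating library than in every muscle library, by 3.66 to 5.13 times in fitted values. Igfbp4, Igfbp5 and Igfbp6, the binding proteins with the most reads, differed by less than the spread between libraries. Igf2 lay under the level of silent genes, and Igfbp2 under or near it, in both groups. Igfbp3 overlapped between groups, at 24.5 to 227.6 CPM in circulating and 133.6 to 159.7 CPM in muscle libraries. In the edgeR quasi-likelihood test with TMM (trimmed mean of M values) scaling, 0 of the 8 tested members passed an adjusted p of 0.05, where 0.109% of 20248 tested genes did. At an unadjusted p under 0.05, 4 members were lower and 0 higher, where 9.64% of all tested genes, and 21.8% of those of at least 20 CPM, were lower. With DESeq2 4 members passed, all lower, where 10.3% of genes with an adjusted p were called lower and 1.16% higher. Groups did not overlap for 4 members, all lower, against 27.7% of tested genes in either direction and 28.8% lower among genes of at least 20 CPM. Of the 8 log2 fold changes 7 were negative, against 45.5% of tested genes and 78.3% of those of at least 20 CPM. All 8 averaged at least 20 CPM. The 8 tested members had at least 103 reads in every library, so each passed the filter on low counts in both groups.

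**Figure D1:**
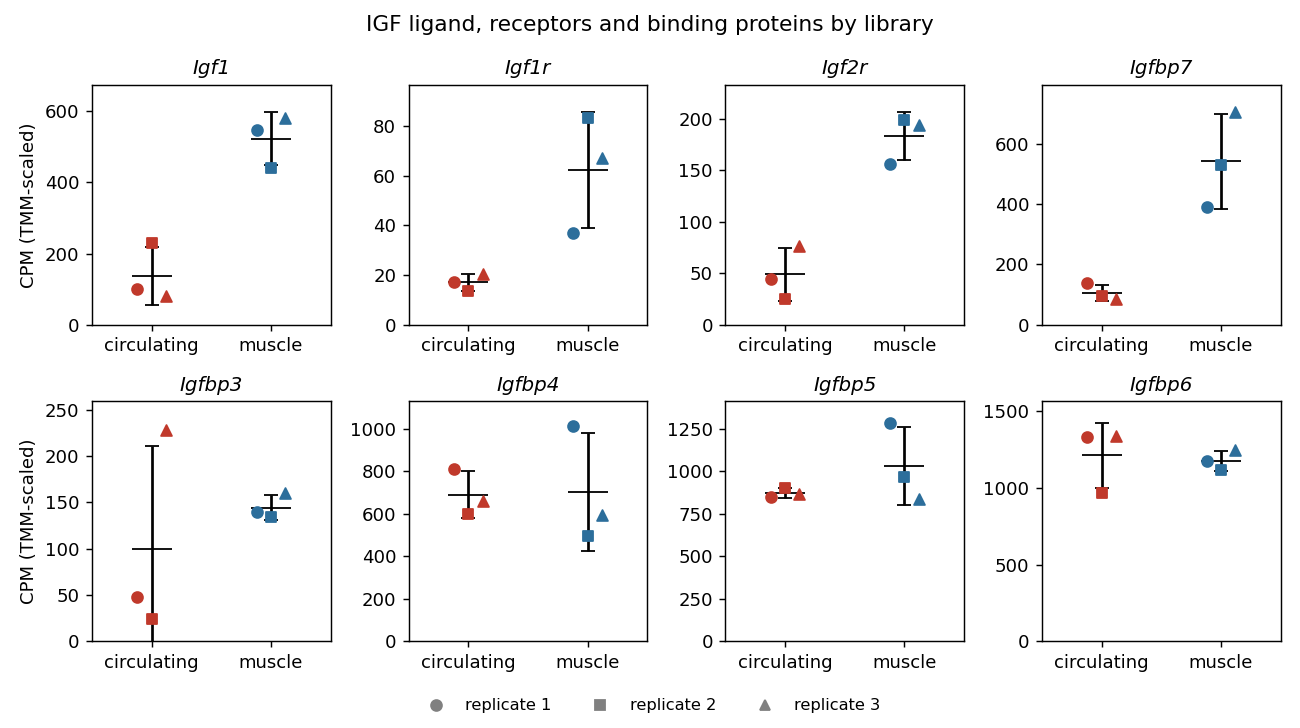
Levels of the 8 tested IGF genes in CPM scaled by TMM, on linear axes from 0, for circulating (red) and muscle (blue) libraries. Points are libraries, with 1 shape per replicate number, and lines are the mean ± SD of 3 libraries (the lower bar of Igfbp3 in circulating libraries runs past 0). In the top row every circulating point lies below every muscle point, and in the bottom row the groups overlap.

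The promoters of the 4 genes without overlap between groups are shown because these genes were low together, as the 250 bases before the start that RefSeq annotates on GRCm38.p6 (the counts were made on GRCm39). Capitals mark the GC box GGGCGG or its complement CCGCCC, and the CCAAT box or its complement ATTGG.
Igf1 promoter, chr10:87860861-87861110, plus strand: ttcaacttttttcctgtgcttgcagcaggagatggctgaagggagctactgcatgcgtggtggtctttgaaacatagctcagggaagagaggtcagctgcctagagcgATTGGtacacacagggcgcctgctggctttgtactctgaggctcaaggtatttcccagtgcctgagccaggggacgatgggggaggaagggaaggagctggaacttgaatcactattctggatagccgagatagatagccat
Igf1r promoter, chr7:67952007-67952256, plus strand: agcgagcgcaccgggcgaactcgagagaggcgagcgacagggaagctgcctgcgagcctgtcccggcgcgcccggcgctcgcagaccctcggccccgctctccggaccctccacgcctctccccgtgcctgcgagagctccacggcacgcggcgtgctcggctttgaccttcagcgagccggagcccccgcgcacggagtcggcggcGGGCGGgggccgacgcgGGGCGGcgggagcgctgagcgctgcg
Igf2r promoter, chr17:12769707-12769956, minus strand: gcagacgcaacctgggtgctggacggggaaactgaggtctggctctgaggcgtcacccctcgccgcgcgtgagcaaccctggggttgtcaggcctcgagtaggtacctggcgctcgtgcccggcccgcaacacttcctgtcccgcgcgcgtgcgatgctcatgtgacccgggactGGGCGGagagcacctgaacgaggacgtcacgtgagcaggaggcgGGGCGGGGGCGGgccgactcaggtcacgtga
Igfbp7 promoter, chr5:77408046-77408295, minus strand: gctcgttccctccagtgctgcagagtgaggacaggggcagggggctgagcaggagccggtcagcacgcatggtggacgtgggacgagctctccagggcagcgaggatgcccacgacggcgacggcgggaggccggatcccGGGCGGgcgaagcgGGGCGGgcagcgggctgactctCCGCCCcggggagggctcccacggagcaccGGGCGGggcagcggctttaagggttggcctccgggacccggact
The GC box occurred 2 times in Igf1r, 3 times in Igf2r and 4 times in Igfbp7, and was not found in this window of Igf1, which had 1 CCAAT box. Of 32851 promoter windows of this length, 32.7% held a GC box and 33.8% a CCAAT box on either strand, and no match of one overlapped the other in these 4. The TATA box TATAAA, in 12.4% of windows, and the FOXO motif GTAAACA, in 3.17%, were in none of the 4. GC content was 77.6% in Igf1r, 74.0% in Igfbp7, 69.2% in Igf2r and 52.8% in Igf1, against a median of 52.4% over all windows. A match describes letters only.

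Igf1, on chromosome 10, was the only IGF ligand with a level clearly above silent genes. It stood at 100.5, 231.1 and 80.3 CPM in circulating replicates 1, 2 and 3, against 547.0, 439.5 and 582.3 CPM in muscle replicates 1, 2 and 3. The highest circulating library, replicate 2, held less than the lowest muscle library, replicate 2. The log2 fold change was -1.93 ± 0.44 (SE; edgeR adjusted p = 0.127; DESeq2 adjusted p = 0.00774). Igf2, the fetal growth factor that is expressed from the paternal allele, had 2, 0 and 0 reads in circulating replicates 1, 2 and 3 and 0, 12 and 0 reads in muscle replicates 1, 2 and 3. A count of 0 allows a level of 0.398 CPM or less in circulating replicate 2 and 0.328 CPM or less in circulating replicate 3, and of 0.179 CPM or less in muscle replicate 1 and 0.146 CPM or less in muscle replicate 3, counting error only. All 6 Igf2 counts lay under the background, at most 0.405 times the reads expected for its exon length from the reads on 559 genes of smell, pheromone and taste receptors, used here as silent genes. Igf2 was not tested and no fold is given.

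Igf1r, on chromosome 7, encodes the signalling receptor. It was at 17.1, 13.7 and 20.4 CPM in circulating replicates 1, 2 and 3, against 36.9, 83.1 and 67.2 CPM in muscle replicates 1, 2 and 3, a log2 fold change of -1.87 ± 0.57 (SE; edgeR adjusted p = 0.175; DESeq2 adjusted p = 0.00514). Every circulating library lay below every muscle library, and muscle replicate 1 was the lowest of its group. These levels were low for a long transcript: Igf1r reads were 2.16, 1.71 and 2.98 times the silent gene background in circulating replicates 1, 2 and 3, against ratios of 8.50, 18.90 and 18.99 times the background in muscle replicates 1, 2 and 3. Background reads per kilobase came to 0.407 to 0.474 CPM in circulating and 0.211 to 0.262 CPM in muscle libraries; their part in the Igf1r difference was not tested.

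Igf2r, on chromosome 17, is the clearing receptor for IGF-2 and the carrier of lysosomal enzymes. Circulating replicates 1, 2 and 3 had 44.7, 25.5 and 76.3 CPM, against 156.3, 199.0 and 194.2 CPM in muscle replicates 1, 2 and 3. The groups did not overlap, and circulating replicate 3 stood nearest to muscle. The log2 fold change was -1.91 ± 0.49 (SE; edgeR adjusted p = 0.145; DESeq2 adjusted p = 0.00783). Airn, the noncoding RNA that starts inside Igf2r on the other strand and silences its paternal allele in mice, was at 4.36, 5.57 and 28.6 CPM in circulating and 52.4, 19.5 and 13.3 CPM in muscle replicates 1, 2 and 3, and these ranges overlapped (adjusted p = 0.469 in edgeR). The library kit named in the labels does not by itself mark strand, and no strand setting for the counting is given, but the annotated exons of Airn and Igf2r share no base. Insr, the related insulin receptor, was at 27.4, 18.96 and 16.6 CPM in circulating against 22.1, 14.1 and 51.6 CPM in muscle replicates 1, 2 and 3 (log2 fold change -0.48 ± 0.67, edgeR adjusted p = 0.694). Its direction turned with scaling on abundant genes, to 0.26.

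Igfbp7, on chromosome 5, encodes a binding protein with low affinity for IGFs that is deposited in matrix around vessels. It stood at 136.9, 93.6 and 86.0 CPM in circulating replicates 1, 2 and 3 against 388.9, 530.9 and 704.6 CPM in muscle replicates 1, 2 and 3. Every circulating library lay below every muscle library, and circulating replicate 1 was the highest of its group. The log2 fold change was -2.36 ± 0.38 (SE; edgeR adjusted p = 0.0603), with a 95% interval of -3.20 to -1.51. Igfbp7 passed with DESeq2 (adjusted p = 0.000101) and limma-voom (adjusted p = 0.0462). In edgeR it passed with TMMwsp scaling (adjusted p = 0.0432), RLE size factors (adjusted p = 0.0388) or no filter (adjusted p = 0.0149), and without circulating replicate 1 (adjusted p = 0.0317). Over all 16 alternatives its adjusted p ran from 0.000101 to 0.259. Endothelial cells are another known source of Igfbp7. The 9 endothelial markers summed to 72.1 to 115.0 CPM in circulating and 90.9 to 138.2 CPM in muscle libraries, with none at 0 throughout. Of these 9, 6 had a negative log2 fold change, where 45.5% of all tested genes did. Tek, the most abundant, Cdh5 and Vwf were at 0.07, 0.07 and 1.12. The 9 pericyte and smooth muscle markers summed to 55.4 to 71.3 CPM and 95.3 to 190.2 CPM, lower in every circulating library. Of these markers 6 had a negative log2 fold change, while Acta2, Myh11 and Cnn1 were at 0.85, 1.85 and 0.90. The part of these cells in the Igfbp7 difference was not tested. Polr2b overlaps 85 bases of Igfbp7 exons on the other strand, and its own 77 to 453 reads per library were fewer than those of Igfbp7 in each library.

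Igfbp3, on chromosome 11, encodes the main carrier of IGF in serum. Its values were 47.9, 24.5 and 227.6 CPM in circulating replicates 1, 2 and 3, against 139.5, 133.6 and 159.7 CPM in muscle replicates 1, 2 and 3. Circulating replicate 3 lay above all muscle libraries and the other circulating libraries below them. The log2 fold change of -0.53 ± 0.71 (SE; edgeR adjusted p = 0.679) became -2.11 without circulating replicate 3 (edgeR adjusted p = 0.212) and 0.18 with scaling on abundant genes. That library also had the highest 18S share, 60.1% with both symbols and 43.0% with 1 symbol kept. The part of that share in the Igfbp3 level was not tested.

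Igfbp6, Igfbp5 and Igfbp4 held most of the IGF gene reads in every library. Igfbp6, on chromosome 15, encodes a binding protein with a preference for IGF-2. It was at 1332, 966.4 and 1338 CPM in circulating and 1173, 1114 and 1246 CPM in muscle replicates 1, 2 and 3, and the groups overlapped. The log2 fold change was 0.04 ± 0.25 (SE; edgeR adjusted p = 0.935), with a 95% interval of -0.52 to 0.61.

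Igfbp5, on chromosome 1, encodes a binding protein that attaches to matrix. Circulating replicates 1, 2 and 3 had 848.7, 902.1 and 864.6 CPM and muscle replicates 1, 2 and 3 had 1282, 967.6 and 836.6 CPM. The log2 fold change was -0.24 ± 0.27 (edgeR adjusted p = 0.622), with a 95% interval of -0.84 to 0.36. Circulating libraries lay close together and within the muscle range. Igfbp4, on chromosome 11, encodes a binding protein that restrains IGF action until it is cleaved. It was at 812.4, 598.5 and 660.5 CPM in circulating and 1015, 493.2 and 596.0 CPM in muscle replicates 1, 2 and 3, with overlap and a log2 fold change of -0.02 ± 0.34 (edgeR adjusted p = 0.9747; 95% interval -0.77 to 0.72). With scaling on abundant genes these genes turned to or stayed on the higher side, at 0.74 for Igfbp6, 0.49 for Igfbp5 and 0.70 for Igfbp4, and did not pass.

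Igfbp2, which lies beside Igfbp5 on chromosome 1, had 0, 2 and 6 reads in circulating and 4, 14 and 8 reads in muscle replicates 1, 2 and 3. The count of 0 in circulating replicate 1 allows up to 0.218 CPM. These reads were 0 to 1.46 times the silent gene background, so Igfbp2 was not separated from background in either group at this depth, and it was not tested.

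**Figure D2:**
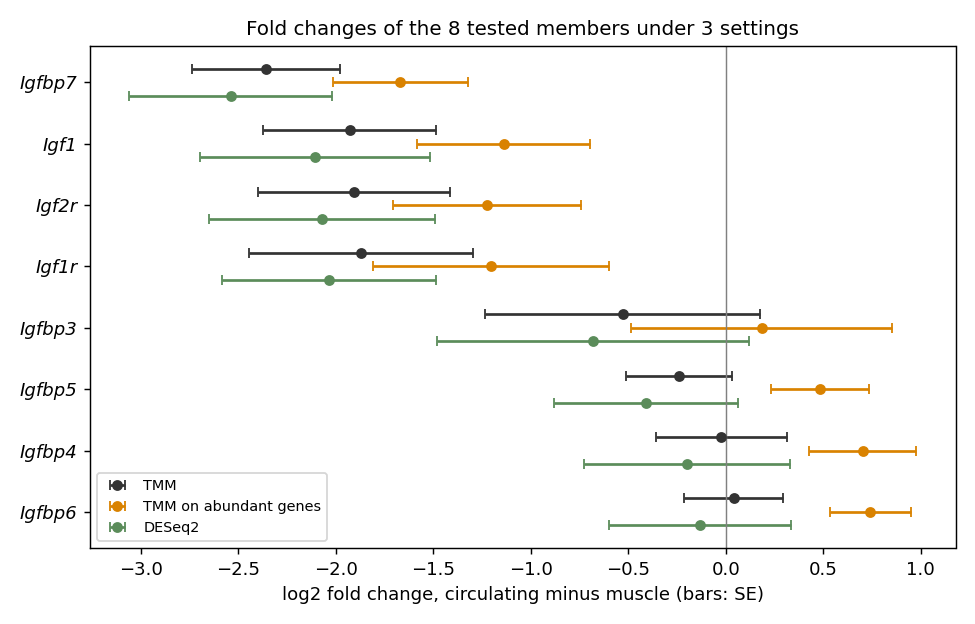
Log2 fold change, circulating minus muscle, of the 8 tested IGF genes with bars of 1 SE, under edgeR with TMM scaling, edgeR with TMM factors from genes of at least 20 CPM, and DESeq2. Igfbp7, Igf1, Igf2r and Igf1r lie left of 0 under all 3, while Igfbp3, Igfbp5 and Igfbp4 cross 0 with the scaling and Igfbp6 lies on either side of 0.

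The scale of these fold changes depended on the library scaling. Genes of at least 20 CPM had a median log2 fold change of -0.65 against 0.15 for all tested genes, 78.3% of them were negative, and 28.8% were lower in every circulating library, where 11.4% of all tested genes and 4 of the 8 members were. The median over all tested genes shifted by 0.70 when library factors came from abundant genes. Under that scaling the log2 fold changes were -1.67 for Igfbp7, -1.23 for Igf2r, -1.20 for Igf1r and -1.14 for Igf1, each with the same direction as before, and none passed. The median of the 8 tested members was -1.20 with TMM and -0.48 with that scaling.

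Ratios within a library do not depend on scaling. Per kilobase of exon, Igfbp7 made up 6.86%, 6.24% and 4.34% of Igfbp2 to Igfbp7 reads in circulating replicates 1, 2 and 3, against shares of 17.2%, 25.0% and 28.7% in muscle replicates 1, 2 and 3. Igfbp6 made up 72.5%, 70.1% and 73.3% in circulating and 56.6%, 57.0% and 55.2% in muscle replicates 1, 2 and 3. For both shares the groups did not overlap, with 5.81% ± 1.31 against 23.7% ± 5.86 for Igfbp7 and 72.0% ± 1.69 against 56.3% ± 0.936 for Igfbp6 (SD, n = 3; two-sided exact permutation p = 0.1, the smallest that 3 against 3 allows, and 0.3 adjusted over 6 genes). The shares of one library add up to a whole, so one cannot move without another. Igfbp4 took 10.4% ± 1.11 against 8.45% ± 3.37, Igfbp5 9.81% ± 1.99 against 9.16% ± 2.29, Igfbp3 1.996% ± 2.11 against 2.44% ± 0.0636 and Igfbp2 0.0111% ± 0.0108 against 0.0131% ± 0.00781 in circulating and muscle libraries, with overlap (exact permutation p = 0.4, 0.7, 1 and 0.9). The 95% Wilson intervals of the unscaled read shares, which cover counting error only, had half-widths of at most 0.679 percentage points for Igfbp6 and 0.290 for Igfbp7, the genes without overlap.

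**Figure D3:**
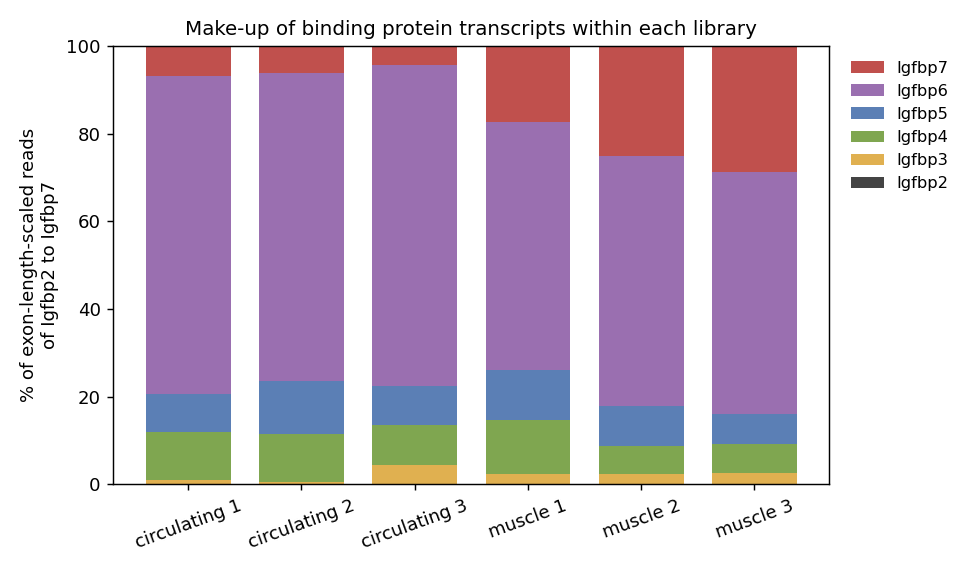
Make-up of binding protein transcripts in each of the 6 libraries, as percent of the exon-length-scaled reads of Igfbp2 to Igfbp7 (Igfbp2 is too small to see). Igfbp7 takes 4.34% to 6.86% in circulating and 17.2% to 28.7% in muscle libraries, and Igfbp6 70.1% to 73.3% and 55.2% to 57.0%.

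The ligand also was lower relative to the binding proteins. Igf1 per kilobase was 0.00614, 0.0188 and 0.00494 times the sum of Igfbp2 to Igfbp7 in circulating and 0.0296, 0.0253 and 0.0290 times in muscle replicates 1, 2 and 3. The mean log2 ratio was lower by 1.75 in circulating libraries, at -6.91 ± 1.03 against -5.16 ± 0.125 (SD, n = 3; two-sided exact permutation p = 0.1, or 0.167 adjusted over 5 ratios), without overlap. Relative to its receptor the ligand's groups overlapped. Igf1 over Igf1r was 9.97, 28.7 and 6.69 in circulating and 25.1, 8.96 and 14.7 in muscle replicates 1, 2 and 3, with overlap and a difference of -0.26 in log2 (exact permutation p = 0.8) that turned to 0.49 with background subtracted. Igf1r over Igf2r differed by 0.23 in log2 (exact permutation p = 0.6), or -0.43 with background subtracted. Igf1r over Insr was 0.510, 0.590 and 1.002 in circulating and 1.36, 4.84 and 1.07 in muscle replicates 1, 2 and 3, with a difference of -1.51 in log2 and no overlap (exact permutation p = 0.1, adjusted 0.167). Muscle replicate 2 had the highest ratio, and without it the difference was -0.85. Ratios with Igf2 were not computed because of its counts of 0.

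Set against the sum of Igfbp4, Igfbp5 and Igfbp6 per kilobase, a measure chosen after the values were seen and so given with no test, the 4 lower genes did not overlap between groups. The mean log2 ratio differed, circulating minus muscle, by -2.34 for Igfbp7, -2.07 for Igf1, -2.04 for Igf2r and -1.81 for Igf1r, and by -1.15 for Igfbp3, with overlap.

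The order of levels per kilobase put Igfbp6 first in both groups, at 1090 ± 191 reads per kilobase and 1000000 (RPKM) in circulating and 1059 ± 59.4 RPKM in muscle libraries. In circulating libraries Igfbp4 (156.4 ± 24.9 RPKM) and Igfbp5 (145.2 ± 4.57 RPKM) came next and overlapped each other, followed by Igfbp7 (87.3 ± 22.7 RPKM), Igfbp3 (31.9 ± 35.5 RPKM) and Igf1 (13.9 ± 8.26 RPKM), whose neighbouring ranges overlapped. In muscle libraries Igfbp7 stood second at 447.9 ± 131 RPKM, apart from Igfbp5 (171.3 ± 38.1 RPKM) and Igfbp4 (158.9 ± 62.7 RPKM), which overlapped. Igf1 (52.8 ± 7.51 RPKM) and Igfbp3 (46.1 ± 4.36 RPKM) followed, also with overlap. Igf2r was at 5.24 ± 2.76 and 19.7 ± 2.51 RPKM and Igf1r at 1.014 ± 0.199 and 3.72 ± 1.40 RPKM in circulating and muscle libraries, the lowest 2 of the 8 tested members in each group.

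The genes with profiles most like the abundant binding proteins were found by the root mean square distance of log2 CPM, centred over the 6 libraries, among 4723 other genes of at least 20 CPM. For Igfbp5 these were Ctsb, a lysosomal protease (distance 0.08), Clec3b, the plasminogen-binding tetranectin (0.08), and the FAP surface marker Cd34 (0.10). For Igfbp6 they were the noncoding Mir99ahg (0.09), the ribosomal protein gene Rplp0 (0.10) and the elongation factor subunit Eef1d (0.11). For Igfbp4 they were the ribosomal protein genes Rpl17 and Rps21 and the lipid phosphatase Plpp3 (0.15 each). All 9 had log2 fold changes between -0.28 and 0.05, and none passed. Fold changes near those of the members follow from the choice by distance over the same 6 libraries. Among the members the closest pairs were Igfbp4 and Igfbp5 (0.28), Igfbp5 and Igfbp6 (0.30), Igfbp4 and Igfbp6 (0.32) and the receptors Igf1r and Igf2r (0.40). The distance between Igf1 and Igf1r was 0.77.

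A list of other IGF-related genes held proteins that bind IGF, proteins that release it or inhibit its release, and Igf2bp1, Igf2bp2 and Igf2bp3, which bind Igf2 mRNA and not the IGF protein. Of 13 tested genes in this list 0 passed in edgeR (2 lower and 2 higher at an unadjusted p under 0.05), 2 were lower with DESeq2, and 5 were negative, with a median log2 fold change of 0.03. The serine proteases Htra3, with means of 382.8 ± 185 CPM in circulating and 436.9 ± 84.0 CPM in muscle libraries, and Htra1, at 210.2 ± 26.8 and 205.6 ± 48.4 CPM, were the most abundant (log2 fold changes -0.19 and 0.03; the sign of each turned with some settings). DESeq2 called 10.3% of all its genes lower. Of all tested genes 45.5% were negative, and at an unadjusted p under 0.05 9.64% were lower and 19.3% differed in either direction. In every circulating library 4 genes of the list were higher and 2 lower than in every muscle library, against 16.2% higher and 11.4% lower over all tested genes. The 4 higher genes averaged 1.34 to 9.03 CPM in circulating libraries. Silent gene background per kilobase was also higher there, at 0.407 to 0.474 CPM against 0.211 to 0.262 CPM in muscle libraries. The part of background in the differences of these 4 genes was not tested. The genes of the list that were higher at an unadjusted p under 0.05, and those lower, were named after their values were seen. Igfbp1, a binding protein made mainly by the liver, had 25, 10 and 8 reads in circulating and 2, 8 and 2 reads in muscle replicates 1, 2 and 3 (edgeR adjusted p = 0.171, no DESeq2 adjusted p). Igf2bp1 was at 5.38, 2.65 and 6.24 CPM in circulating and 1.07, 1.97 and 1.95 CPM in muscle replicates 1, 2 and 3 (1.51 ± 0.57; edgeR adjusted p = 0.210; DESeq2 adjusted p = 0.170). Pappa, the metalloprotease that cleaves Igfbp4 and frees IGF, was at 4.95, 5.70 and 2.85 CPM in circulating and 21.2, 16.9 and 15.1 CPM in muscle replicates 1, 2 and 3 (-1.98 ± 0.65; edgeR adjusted p = 0.180; DESeq2 adjusted p = 0.00291). Adam9, a membrane metalloprotease, was at 21.5, 2.65 and 13.7 CPM in circulating and 81.7, 112.5 and 110.3 CPM in muscle replicates 1, 2 and 3 (-3.00 ± 0.73; edgeR adjusted p = 0.131; DESeq2 adjusted p = 0.000667). The ratio of Igfbp4 to Pappa per kilobase was 410.3, 262.1 and 579.7 in circulating and 119.3, 73.0 and 98.6 in muscle replicates 1, 2 and 3, higher in each circulating library (exact permutation p = 0.1, adjusted 0.167). Pappa had 68, 43 and 26 reads in circulating replicates 1, 2 and 3, not all above the silent gene background. With background subtracted the ratio therefore had no value, and the part of background in its difference was not tested.

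Receptor-proximal genes had 16 of 18 tested members negative, with a median log2 fold change of -0.64, close to that of all genes of at least 20 CPM. None passed in edgeR (1 lower and 0 higher at an unadjusted p under 0.05), and 1 was lower with DESeq2. Over all features, 78.3% of genes of at least 20 CPM were negative, 9.64% of tested genes were lower at an unadjusted p under 0.05, and 10.3% were lower with DESeq2, so the called counts of this list were not above the background. The gene lower with DESeq2 was Irs2, an adaptor that links the insulin and IGF-1 receptors to PI3-kinase, named after its values were seen. It was at 50.5, 71.6 and 78.7 CPM in circulating and 341.9, 300.9 and 337.3 CPM in muscle replicates 1, 2 and 3, with no overlap (-2.29 ± 0.38; edgeR adjusted p = 0.0614; DESeq2 adjusted p = 4.98e-05). The most abundant genes of the list were the scaffold Rack1 at 470.2 ± 248 and 541.4 ± 76.0 CPM (edgeR adjusted p = 0.777) and the ubiquitin ligase Nedd4 at 229.5 ± 48.0 and 346.0 ± 77.8 CPM (edgeR adjusted p = 0.363), circulating before muscle.

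In the PI3-kinase and Akt arm, which carries the signal to growth and survival, 0 of 26 tested genes passed in edgeR (4 lower and 1 higher at an unadjusted p under 0.05), 3 were lower with DESeq2 and 19 were negative, with a median of -0.61. The background was 9.64% lower at an unadjusted p under 0.05 (21.8% of genes of at least 20 CPM), 10.3% lower with DESeq2 and 45.5% negative (78.3% of genes of at least 20 CPM), and the shares of this list were near it. Pik3r1, the regulatory subunit of PI3-kinase, was at 66.8, 35.1 and 47.1 CPM in circulating and 142.2, 101.6 and 157.3 CPM in muscle replicates 1, 2 and 3 (-1.43 ± 0.46; edgeR adjusted p = 0.180; DESeq2 adjusted p = 0.0266). The kinase Akt2, named after its values were seen, was at 27.9, 16.3 and 28.2 CPM in circulating and 67.3, 67.1 and 48.6 CPM in muscle replicates 1, 2 and 3, with no overlap (-1.34 ± 0.54; edgeR adjusted p = 0.223; DESeq2 adjusted p = 0.0355).

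Growth hormone induces Igf1 through Stat5 factors. All 9 tested genes of this axis were negative, with a median log2 fold change of -1.27, and 0 passed in edgeR (3 lower and 0 higher at an unadjusted p under 0.05) while 1 was lower with DESeq2. Of genes of at least 20 CPM, 78.3% were negative and 21.8% were lower at an unadjusted p under 0.05, and DESeq2 called 10.3% of its genes lower. The gene lower with DESeq2 was Stat5b, at 11.5, 5.83 and 32.4 CPM in circulating and 69.0, 65.8 and 85.4 CPM in muscle replicates 1, 2 and 3 (-2.15 ± 0.69; edgeR adjusted p = 0.180; DESeq2 adjusted p = 0.0150). Socs3, a feedback inhibitor of cytokine receptors, was the most abundant, with means of 243.8 ± 43.4 CPM in circulating and 418.5 ± 20.8 CPM in muscle libraries (edgeR adjusted p = 0.228). Among imprinted genes that lie near Igf2 or Igf2r, Cdkn1c, H19 and Airn had negative log2 fold changes, none past the edgeR threshold, and Ins2 was at -0.0022 ± 0.96 (SE). Over all tested genes 45.5% were negative. Cdkn1c, a cell cycle inhibitor, was at 46.5 ± 21.1 and 120.2 ± 20.8 CPM (-1.37 ± 0.49; edgeR adjusted p = 0.202; DESeq2 adjusted p = 0.0450), and H19, the noncoding neighbour of Igf2 expressed from the maternal allele, at 13.9 ± 9.14 and 34.0 ± 10.9 CPM (edgeR adjusted p = 0.334) in circulating and muscle libraries. H19 had at least 34 reads in every library, where Igf2 had at most 12.

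**Figure D4:**
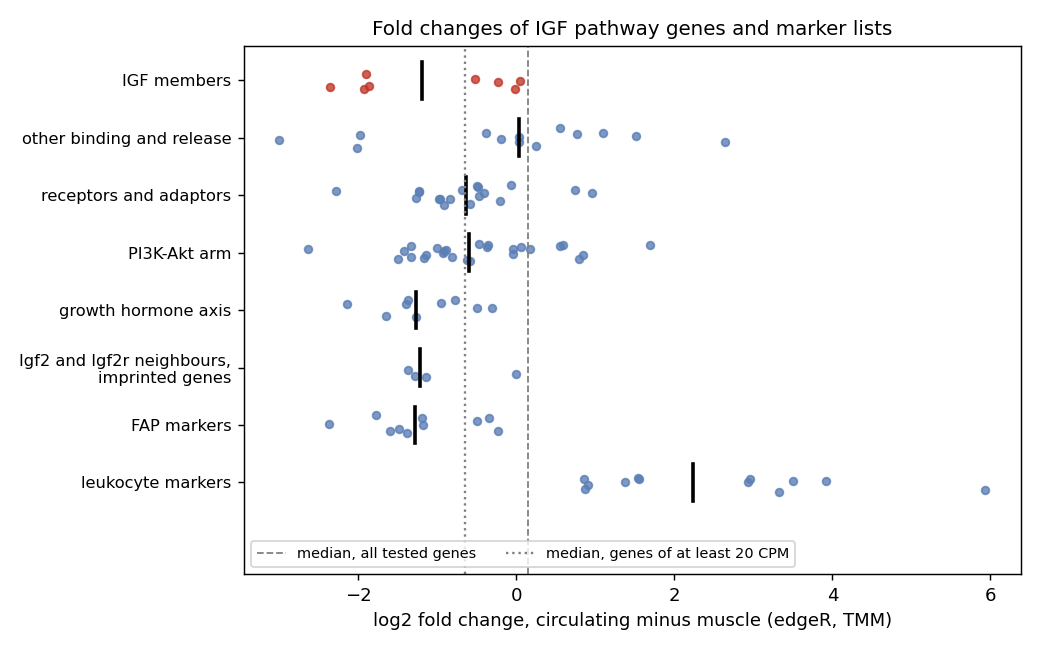
Log2 fold change, circulating minus muscle, of each tested gene of the IGF lists (points, jittered vertically), with FAP and leukocyte markers below. Short vertical bars are list medians and the long lines are the medians of all tested genes (0.15) and of genes of at least 20 CPM (-0.65). Of the IGF members, 4 lie between -2.36 and -1.87 and 4 between -0.53 and 0.04. FAP markers lie left of 0 and leukocyte markers right of it.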

How the data were processed

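RNA-seq of FAPs from blood and muscle of MCAO mice gave a single deposited count table, unnormalized, whose rows are gene symbols and whose columns are the 6 samples. The submitters' processing notes name featureCounts, STAR, Trim Galore and the build GRCm39; versions, options and the annotation are not given in the sources used here. Per the labels' protocols, libraries were made with a transposase-based DNA library kit. Every row of the table named a gene.

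Counts were tested with edgeR 4.0.16 in R 4.3.3 (filterByExpr, TMM, robust quasi-likelihood F test, group as the only term, Benjamini-Hochberg over 20248 genes, threshold 0.05), circulating minus muscle. The SE is the coefficient over the square root of its F statistic, and 95% intervals use the same statistic. CPM use the TMM-scaled library size. Exon lengths, matched by symbol for 91.4% of genes, came from GENCODE M21 on GRCm38, so lengths are approximate for the authors' annotation. Differences in shares and ratios were tested by exact permutation, two-sided (SciPy 1.17.1). The background is the median reads per kilobase over 559 sensory receptor genes with a length. DESeq2 1.42.0 and limma 3.58.1 were alternatives. The steps were tested on simulated counts. A gene that did not pass is not thereby shown to be unchanged.

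Libraries of a group differed by more than sampling noise (chi-square per degree of freedom 56.1 to 85.4). Whether they came from separate mice is not labelled, and the p-values reflect only the scatter of these samples, possibly technical. The members and lists were chosen with earlier results of these data known. Named were the 10 members, up to 3 genes of each list past the threshold or else its 2 most abundant, and the 3 genes most like each of the 3 most abundant members; the rule gave 29 genes, of which 1 is not reported here, and other genes were named after their values were seen.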

Additional observations from a re-analysis of the deposited data

How the results depend on the processing

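Igf1, Igf1r, Igf2r and Igfbp7 kept a negative log2 fold change under all 16 alternatives, from -2.62 to -1.14, -2.19 to -1.20, -2.50 to -1.23 and -2.66 to -1.67. Members past the threshold numbered 0 in the main fit, 4 with DESeq2, 2 with no filter (Igf1, Igfbp7), 1 (Igfbp7) with TMMwsp, RLE size factors or limma-voom, and 0 to 1 when each library was left out, the 1 being Igfbp7 without circulating replicate 1. The 22 genes called over the whole table became 1543 with DESeq2, 160 with no filter, 92 with limma-voom, 43 with RLE, 7 when factors came from abundant genes, 2 with upper quartile and 0 to 65 when each library was left out. No label says whether same-numbered libraries share a mouse. Deviations of same-numbered libraries had correlations of -0.014, 0.056 and -0.0010, and those of differently numbered libraries ran from -0.079 to 0.078. Correlations this near 0 cannot show whether the samples were paired. With a replicate block 1 gene and 0 members passed and Igfbp4 was at 0.036.

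Log2 fold changes near 0 changed sign. With scaling on abundant genes they were 0.18 for Igfbp3, 0.70 for Igfbp4, 0.49 for Igfbp5, 0.26 for Insr, 0.53 for Htra3, 0.15 for Nedd4, 0.46 for Rack1, 0.49 for Cd34, 0.46 for Clec3b, 0.53 for Ctsb, 0.67 for Eef1d, 0.70 for Plpp3, 0.64 for Rplp0 and 0.57 for Rps21, and with upper quartile 0.17, 0.66, 0.45, 0.25, 0.50, 0.11, 0.45, 0.45, 0.41, 0.49, 0.65, 0.67, 0.62 and 0.54 in that order. With library size only Igfbp4 was at 0.17, Eef1d 0.11, Plpp3 0.15, Rplp0 0.057 and Rps21 0.035, and with limma-voom Igfbp4 at 0.078 and Plpp3 at 0.035. Igfbp6, Htra1, Mir99ahg and Rpl17 were at -0.062, -0.074, -0.054 and -0.066 with RLE, -0.010, -0.022, -0.0045 and -0.0068 with 18S left out, -0.18, -0.20, -0.18 and -0.18 with no filter and -0.13, -0.15, -0.12 and -0.13 with DESeq2, and Htra1 at -0.0051 with TMMwsp. The ranges with each library left out were -0.15 to 0.093 for Igfbp6, -0.28 to 0.29 for Igfbp4, -0.16 to 0.18 for Htra1, -0.74 to 0.012 for Htra3, -0.87 to 0.16 for Insr, -0.13 to 0.075 for Mir99ahg, -0.23 to 0.20 for Rpl17, -0.20 to 0.14 for Plpp3, -0.30 to 0.046 for Rplp0 and -0.39 to 0.045 for Rps21.

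Shares of Igfbp6, Igfbp7 and Igfbp4 and the ratios of Igf1 to binding proteins, Igf1r to Insr and Igfbp4 to Pappa kept their direction in every alternative that gave a value (background subtraction gave none for Pappa), and Igf1r to Insr ran from -1.94 to -0.85 with each library left out, nearest to 0 without muscle replicate 2. Among the members Igfbp7 had the most negative log2 fold change with TMM, but without circulating replicate 2 Igf1 did (-2.62 against -2.38 for Igfbp7), and without circulating replicate 3 Igf2r did (-2.50 against -2.35). With each library left out the share difference ran from -0.00726 to 0.00357 percentage points for Igfbp2, -1.67 to 0.234 for Igfbp3 and -0.498 to 1.79 for Igfbp5, and the log2 ratio difference from -0.87 to 0.18 for Igf1 over Igf1r and -0.021 to 0.48 for Igf1r over Igf2r. With background subtracted these ratios were at 0.49 and -0.43. The cause of these changes was not tested. Igf2 and Igfbp2 had at most 14 reads in a library, near or under the background.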
